A study of Macaca mulatta with 2 samples.

Results

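The 40 genes described here mark the layers, the projection neurons and the areas of the cerebral cortex. They were chosen by symbol from a list of 43 names, and 40 of the 33618 genes in the count table carry one of these names. PCP4, TLE4 and CUX1 are not listed under those symbols. Their RNA was counted in the prefrontal cortex of 2 infant rhesus macaques, 1 control animal and 1 animal exposed to the inhaled anesthetic sevoflurane. By the labels both animals were at postnatal day 28, and the exposures to about 2.5 to 3% sevoflurane took place near days 7, 14 and 28, for 4 h each. The methods place the later exposures on other days and the dissection right after the last one, and they describe no exposure for the control animals beyond calling them the control group. By the methods sevoflurane was given in pure oxygen with endotracheal intubation, after an induction at a higher concentration. These parts of the procedure cannot be told apart from the drug. The series plans 3 animals per group, of which 1 per group was analysed here, so there are no replicates, no p-value is given, and each difference is one between these libraries.

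The cortex is built in layers, each with its own kinds of excitatory neuron. Neurons of the upper layers project mainly to other cortical areas, layer 4 receives input from the thalamus, layer 5 holds the large neurons that project to the brainstem and spinal cord, and layer 6 projects back to the thalamus. The subplate is an early layer of neurons under the cortex that persists in part at the border of the white matter. Transcription factors such as CUX2, FEZF2, BCL11B and TBR1 set up these identities during development, and most of them stay on in the mature neurons. A piece of cortex cut deeper or shallower holds a different mix of layers, so the upper and the deep genes were compared between the animals as a check on the dissection.

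On genes, 16960880 reads were counted for the control and 9839105 for the sevoflurane animal. Levels are given as CPM, counts relative to a common library size after edgeR's TMM scaling, and differences as the log2 ratio of CPM of sevoflurane over control, so that a negative value is a lower level in the sevoflurane library. The interval beside a ratio is the exact 95% counting interval, which does not include the variation between animals. Ratios were computed for the 18050 genes that reached 1 CPM in at least 1 library, and their median was -0.0048. The cortical origin of both pieces was checked on SLC17A7, the main glutamate transporter of cortical excitatory neurons, with 998 and 914 CPM, and on EMX1, a homeobox factor of the dorsal forebrain, with 16.0 and 37.3 CPM. ISL1, a striatal factor, and OTX2, a choroid plexus factor, had 0 reads in both libraries, which allows levels of up to 0.179 CPM (control) and 0.302 CPM (sevoflurane). Other genes of their lists did have reads. The striatal list summed to 184 CPM (control) and 170 CPM (sevoflurane), the choroid plexus list to 11.6 and 8.36 CPM. The zeros therefore do not show that the pieces were free of neighbouring tissue. The 7 genes of the Y chromosome list held 3 control reads and 4308 sevoflurane reads, with 126 to 1781 sevoflurane reads and 0 to 2 control reads per gene. By these reads the libraries came from a male (sevoflurane) and a female (control), and the part of sex in the results below cannot be told apart from the exposure.

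Of the 40 listed genes, 39 passed the 1 CPM filter. The remaining one, THEMIS, had 10 control and 8 sevoflurane reads. Among the 39, 7 genes were lower after sevoflurane by 2-fold or more with an interval below equal expression, or 17.9%, against 5.47% of all tested genes. They were the layer 5 genes RXFP1, CRYM and FEZF2, the subplate gene NXPH4, the upper-layer gene CARTPT, and LMO3 and LMO4. At least 2-fold higher were CUX2 and POU3F1, or 5.13%, against 7.56% of all tested genes. By the interval alone, 16 genes were lower, 16 were higher and 7 could not be told from equal expression, against 28.1% lower and 28.4% higher of all genes. Since a counting interval narrows with abundance, the same was counted over the genes with at least 5 CPM in at least 1 library. Of these genes, 32.8% were lower and 30.3% higher by the interval alone, beside 15 and 16 of 37 layer genes. By 2-fold and interval, 3.69% of these genes were lower and 4.2% higher, beside 6 and 2 of the 37. CARTPT passed 5 CPM only in the control library (6.90 and 1.71 CPM), POU3F1 only in the sevoflurane library (4.70 and 14.5 CPM). LMO4 passed 1 CPM only in the control library (2.80 and 0.10 CPM). The filters thus let these genes in through the library where they are high, and the same filters were applied to all genes. The median over the 39 genes was -0.07, close to that of all genes, and the classes within the set differed from each other.

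**Figure D1:**
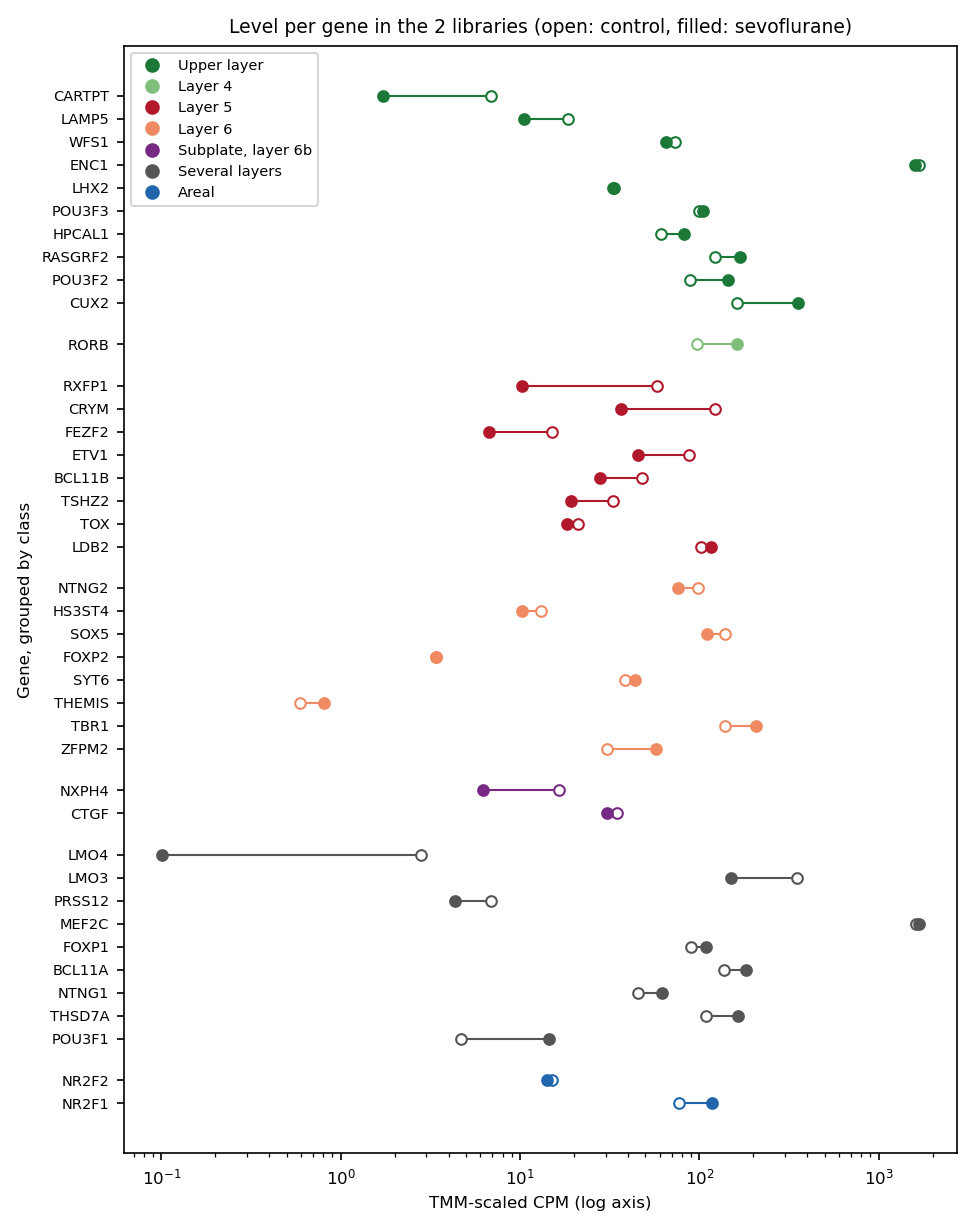
Level of each of the 40 listed genes in the control library (open circle) and the sevoflurane library (filled circle), as TMM-scaled CPM on a log axis, grouped by layer class. Filled circles lie to the left of the open ones for 7 of 8 layer 5 genes, while CUX2 goes from 163 to 354 CPM and RORB from 96.8 to 163 CPM.

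Layer 5 was the class with the lowest median, -0.86 over its 8 listed genes. Of the 8, 6 were lower beyond counting error, beside 28.1% of all tested genes. RXFP1, a receptor for the peptide hormone relaxin, had 975 control and 102 sevoflurane reads, a log2 ratio of -2.48 (95% interval -2.81 to -2.20). CRYM, a thyroid hormone-binding protein of deep-layer neurons, had 2060 and 363 reads, a ratio of -1.74 (-1.91 to -1.58). RXFP1 was thus 5.65-fold and CRYM 3.35-fold lower by CPM, well outside what counting alone gives at these read numbers. FEZF2, the transcription factor that specifies subcortical projection neurons, had 252 and 67 reads, with a ratio of -1.14 (-1.56 to -0.76). BCL11B, also known as CTIP2, which acts after FEZF2 in the same neurons, had 805 and 277 reads and a ratio of -0.78 (-0.98 to -0.58). Both genes of this cascade were therefore lower, FEZF2 by more than 2-fold and BCL11B by less.

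The other layer 5 genes spread from a lower level to a slightly higher one. ETV1, an ETS family transcription factor that marks layer 5, had 1477 control and 453 sevoflurane reads (ratio -0.94, interval -1.10 to -0.79). TSHZ2, a zinc finger and homeobox factor, had 557 and 192 reads (-0.77, interval -1.02 to -0.54). These genes did not reach 2-fold, but their intervals lay wholly below equal expression. TOX, an HMG-box factor, had 355 and 182 reads and an interval of -0.47 to 0.06 that includes equal expression. LDB2, a cofactor of LIM-domain transcription factors, was the only layer 5 gene with a higher level, at 1718 and 1151 reads (0.18, interval 0.07 to 0.29), and it turned to -0.21 when ratios were taken relative to excitatory neuron markers. Summed over the 8 genes, layer 5 came to 488 CPM for the control and 281 CPM for the exposed animal, or 57.5% of the control level. In tissue RNA such as this, fewer neurons of a layer and less RNA per neuron cannot be told apart.

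Layer 6 differed from layer 5. Its 7 tested genes had a median of 0.01, with 2 lower, 3 higher and 2 not distinguishable by the interval. None of the 7 reached 2-fold in either direction. Of all tested genes, 28.1% were lower and 28.4% higher by the interval, and 5.47% and 7.56% by 2-fold. TBR1, the T-box factor of corticothalamic neurons, was higher, with 2347 control and 2057 sevoflurane reads (0.57, interval 0.48 to 0.66). ZFPM2, a zinc finger cofactor, had 511 and 566 reads and the highest ratio of the deep genes (0.90, interval 0.73 to 1.08). SYT6, a synaptotagmin, was barely above equal expression at 650 and 435 reads (0.18, interval 0.001 to 0.36), and relative to the excitatory neuron markers it was at -0.21. TBR1 and ZFPM2 thus stood clearly above equal expression, where most layer 5 genes stood below it.

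SOX5, a factor that orders the birth of deep-layer neurons, had 2348 control and 1099 sevoflurane reads (-0.34, interval -0.44 to -0.23). NTNG2, a netrin-related adhesion protein, had 1657 and 754 reads (-0.38, interval -0.50 to -0.25). These were the layer 6 genes with a lower level, and both differences were below 1.5-fold. HS3ST4, a heparan sulfate sulfotransferase, had 219 and 102 reads with an interval of -0.70 to 0.002, and FOXP2, a forkhead factor, had only 57 and 34 reads with an interval of -0.64 to 0.65. For FOXP2, a difference of up to about this size in either direction was not detectable at this depth.

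The subplate genes were both at a lower level, but 1 of them within counting error. NXPH4, a neurexophilin secreted by neurons at the base of layer 6, had 278 control and 62 sevoflurane reads, a ratio of -1.38 (interval -1.83 to -1.0). CTGF, a matrix-associated growth factor of subplate neurons that is also made by vascular cells, had 587 and 303 reads and an interval of -0.40 to 0.01. NXPH4 was 2.65-fold lower, and CTGF could not be told from equal expression.

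Over the 10 listed upper-layer genes the median was 0.05. By the interval 4 genes were higher, 4 lower and 2 not distinguishable, beside 28.4% higher and 28.1% lower of all tested genes. The upper-layer genes at a higher level included transcription factors of upper-layer identity. CUX2, a homeobox factor and the classical marker of layers 2 to 4, had 2738 control and 3515 sevoflurane reads, although the sevoflurane library held fewer reads in total. The ratio of CUX2 was 1.12 (interval 1.05 to 1.19). POU3F2, or BRN2, had 1496 and 1444 reads (0.71, interval 0.60 to 0.81). RASGRF2, a RAS exchange factor of layers 2 and 3, had 2043 and 1669 reads (0.47, interval 0.37 to 0.56). HPCAL1, a calcium sensor, had 1027 and 816 reads (0.43, interval 0.29 to 0.56). These 4 genes were higher by 1.34-fold to 2.17-fold. Relative to the excitatory neuron markers CUX2 was at 0.73, below 2-fold, POU3F2 at 0.32, RASGRF2 at 0.08 and HPCAL1 at 0.04.

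The lower genes of the upper layers included those with the fewest reads. CARTPT, the precursor of the CART neuropeptide, had 116 control and 17 sevoflurane reads (-1.92, interval -2.84 to -1.27). LAMP5, a membrane protein that also marks a class of interneurons, had 311 and 105 reads (-0.80, interval -1.14 to -0.48). CARTPT was 4.03-fold lower and was thus further from equal expression than most layer 5 genes, which a simple contrast of upper and deep layers does not show. WFS1, a protein of the endoplasmic reticulum, had 1225 and 644 reads (-0.17, interval -0.31 to -0.03). ENC1, an actin-binding protein, had 28036 and 15745 reads and a ratio of -0.07 whose interval of -0.10 to -0.05 is narrow because of its abundance. POU3F3, with 1664 and 1042 reads, and LHX2, a LIM homeobox factor with 554 and 333 reads, could not be told from equal expression. RORB, the nuclear receptor that marks layer 4, had 1626 and 1621 reads and was higher (0.75, interval 0.65 to 0.85).

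**Figure D2:**
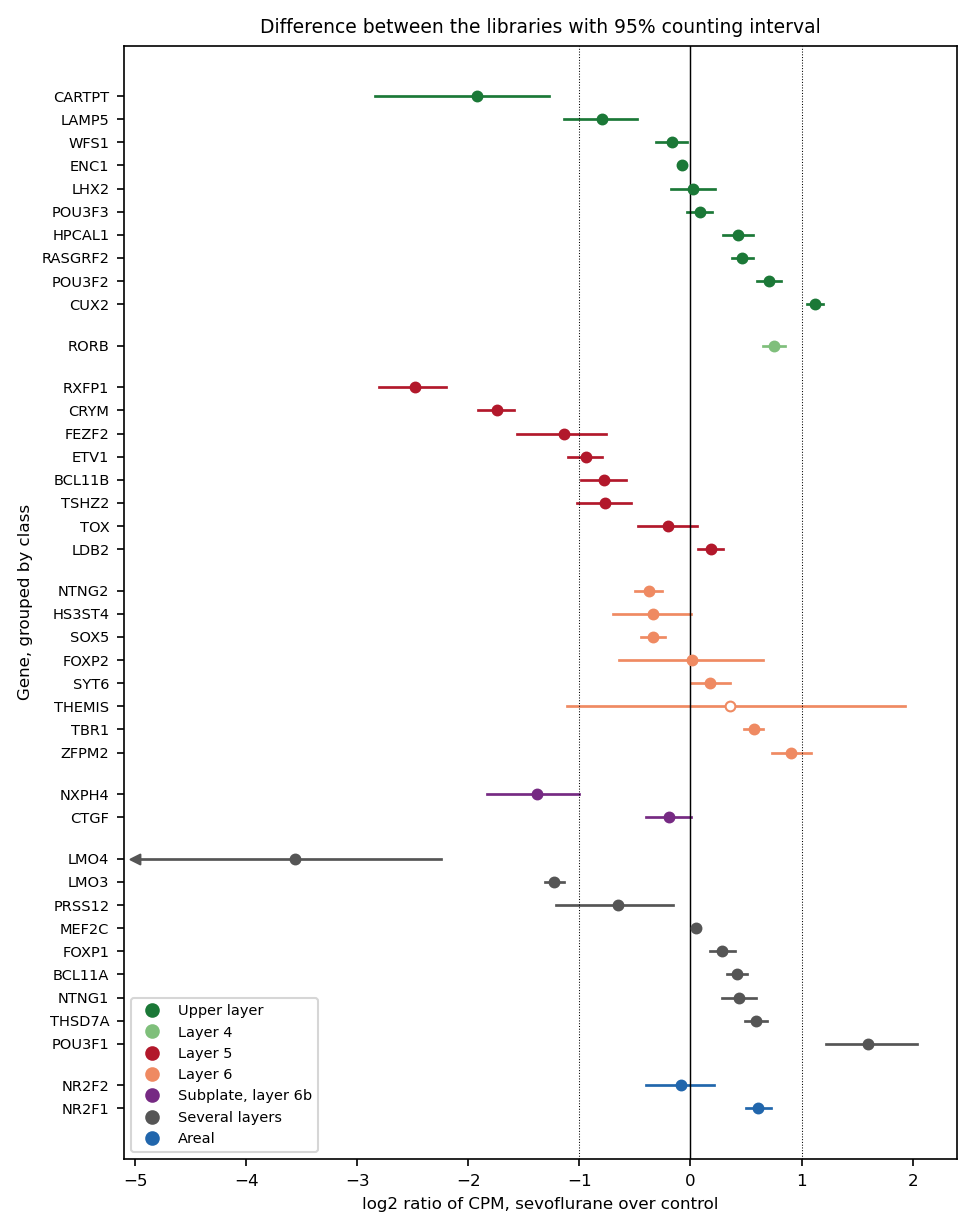
Log2 ratio of CPM, sevoflurane over control, of each listed gene with its 95% counting interval, grouped by layer class. Dotted lines mark 2-fold, the open circle is THEMIS, which did not pass the 1 CPM filter, and the arrow marks the interval of LMO4, which reaches -10.1. Layer 5 genes run from -2.48 to 0.18 and layer 6 genes that passed the filter from -0.38 to 0.90, and LDB2, SYT6, MEF2C and FOXP1, besides POU3F3, LHX2 and FOXP2, whose intervals include 0, change sign when ratios are taken relative to excitatory neuron markers.

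Taking layers 5 and 6 and the subplate as the deep class, 17 of its 18 listed genes were tested and their median was -0.34, so the upper class stood 0.39 above the deep class on the log2 scale. Of the 17 deep genes, 4 were at least 2-fold lower (23.5%, beside 5.47% of all tested genes) and 0 at least 2-fold higher (beside 7.56%). By the interval alone, 9 were lower, 4 higher and 4 not distinguishable, beside 28.1% lower and 28.4% higher of all tested genes. The difference between the classes is by construction free of the scaling of the libraries, and it was 0.39 with the markers most specific to a layer alone, 0.41 with the genes placed by their order in the source list and 0.51 with means in place of medians. Reads on deep genes made up 30.1% of the reads on upper and deep genes in the control library (exact 95% interval 29.7 to 30.5%) and 24.5% in the sevoflurane library (24.0 to 24.9%). Without ENC1 and TBR1, the most abundant gene of each class, these shares were 56.5% and 39.1%. The lower share in the sevoflurane library was therefore present with and without the most abundant genes.

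Each deep gene was also set against each upper gene, since the ratio of 2 genes is free of scaling. Of the 170 pairs, which share genes and are not independent, the deep gene was lower relative to the upper gene in 102, higher in 36 and not distinguishable in 32 by the exact 95% interval of the odds ratio. All 17 deep genes were lower relative to CUX2 and 16 of 17 relative to POU3F2. Relative to CARTPT, none was lower and 13 were higher, so the answer for a single upper gene depended on which gene was chosen. When layers 5 and 6 were separated, a step taken after their values were seen, the layer 5 gene was lower in 59 of the 80 pairs with upper genes and in 47 of the 56 pairs with layer 6 genes. In the 70 pairs of layer 6 with upper genes, the layer 6 gene was lower in 29 and higher in 25. In these pairs the difference between the classes thus lay mostly in layer 5. The class medians given above differed by -0.91 for layer 5 minus upper and by -0.04 for layer 6 minus upper.

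The 9 genes found in several layers did not share a direction. POU3F1, a POU factor also known as SCIP, had 79 control and 144 sevoflurane reads. Its ratio was the highest of the 39 tested genes, 1.59 (interval 1.22 to 2.04). CUX1, counted under another symbol and not among the 39, had a higher ratio (1.70). THSD7A, a thrombospondin-domain protein, had 1834 and 1633 reads (0.59, interval 0.49 to 0.69). BCL11A, a zinc finger factor, had 2295 and 1813 reads (0.42, interval 0.33 to 0.51). NTNG1, a netrin-related protein, stood at 0.44, FOXP1 at 0.29 and MEF2C, an activity-dependent factor of excitatory neurons with 27243 and 16702 reads, at 0.05. These 6 genes were higher by the interval, beside 28.4% of all tested genes. Relative to the excitatory neuron markers, POU3F1 was at 1.20, THSD7A at 0.20, NTNG1 at 0.05 and BCL11A at 0.03. FOXP1 and MEF2C turned to -0.10 and -0.34 with that reference.

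The lower genes of this class were LMO3, LMO4 and PRSS12. LMO3, a LIM-only cofactor of transcription factors, had 5885 control and 1488 sevoflurane reads (-1.22, interval -1.31 to -1.14). LMO4, its relative, had 47 control reads and 1 sevoflurane read, a ratio of -3.56 with an interval of -10.13 to -2.25. Its single sevoflurane read is below the floor of 3 reads, and the ratio was -2.95 with the control library sampled down and -4.36 with a prior count of 0.5. PRSS12, a secreted protease also called neurotrypsin, had 116 and 43 reads (-0.65, interval -1.21 to -0.16). LMO3 had the most reads of the genes at least 2-fold lower, and LMO4 the fewest. Of the areal factors, NR2F1 was higher, with 1290 and 1165 reads (0.61, interval 0.50 to 0.73), and NR2F2, with 254 and 141 reads, could not be told from equal expression (-0.40 to 0.21).

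Several of these genes are paralogs, copies of one ancestral gene, of which only some stand in different layer classes. Comparing them within a pair removes the scaling. BCL11B was lower relative to BCL11A (difference of log2 ratios -1.2, interval -1.42 to -0.98). NTNG2 was lower relative to NTNG1 (-0.81, interval -1.02 to -0.61), and NR2F2 relative to NR2F1 (-0.70, interval -1.03 to -0.38). In the first of these pairs the lower paralog is the layer 5 gene, and in the second it is the layer 6 gene. Among the POU3F genes, which are short and similar in sequence, POU3F1 was higher relative to POU3F2 (0.92, interval 0.50 to 1.35) and POU3F2 relative to POU3F3 (0.62, interval 0.47 to 0.78). FOXP2 and FOXP1 could not be told apart (-0.94 to 0.38). LMO4 was lower relative to LMO3, with an interval of -8.91 to -1.02. How reads that match more than 1 paralog were counted is not given in the sources used here, so the split within a pair carries that uncertainty.

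**Figure D3:**
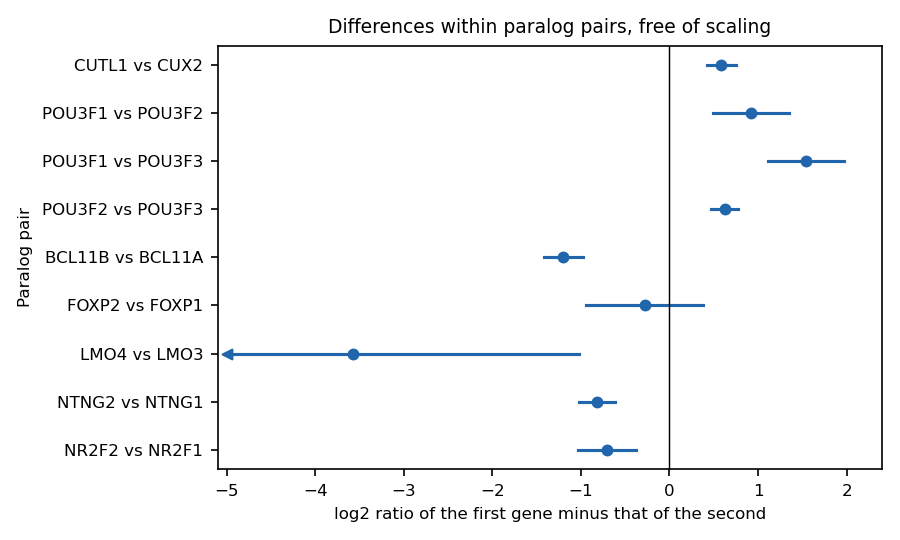
Difference of log2 ratios (sevoflurane over control) between the first and the second gene of each paralog pair, with the exact 95% interval. BCL11B, NTNG2, NR2F2 and LMO4 lie below their partners, the POU3F pairs lie above 0, and the arrow marks the interval of LMO4, which reaches -8.91. CUTL1 is the older symbol of CUX1.

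Of 9 further deep-layer genes outside the 40, 7 were lower by the interval and 2 of them at least 2-fold, with a median of -0.43. Over all tested genes 28.1% were lower by the interval and 5.47% by 2-fold. RPRM, a layer 6 marker, had 403 control and 92 sevoflurane reads (-1.36), and OPRK1, the kappa opioid receptor, had 212 and 61 reads (-1.02). CPLX3, a complexin of the deepest neurons, was at -0.91 and NR4A2, a nuclear receptor of the subplate that is also induced by neuronal activity, at -0.76. SEMA3E, VAT1L and SULF2 lay between -0.43 and -0.34, OTX1 was not distinguishable (0.23), and NEFH, a neurofilament of large projection neurons, was higher (0.69). Here layer 6 and subplate markers were among the lowest, unlike the layer 6 genes described above. Of 4 further upper-layer genes 3 were listed, with MDGA1 at 1758 and 2682 reads (1.37) and UNC5D and INHBA not distinguishable (0.07 and -0.04).

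The general markers of excitatory neurons were mostly higher, with a median of 0.39 over 10 genes, 7 of them higher and 3 lower by the interval. Of all tested genes, 28.4% were higher and 28.1% lower by the interval. SLC17A6, the second glutamate transporter, was at 1.73, EMX1 at 1.21, NRGN at 1.01, NEUROD2 at 0.94, NEUROD1 at 0.41 and CAMK2A at 0.32, while SLC17A7 (-0.13) was slightly lower. NEUROD6, a factor of excitatory neurons, had 1315 control and 119 sevoflurane reads (-2.69, interval -2.99 to -2.44), further from equal expression than any layer 5 gene. Against these markers as reference, which shifts every ratio by -0.39, the layer 5 median was -1.25, the layer 6 median -0.38 and the upper-layer median -0.34. The difference between upper and deep classes cannot change under such a shift and stayed at 0.39 by construction.

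White matter lies below layer 6, and its markers were lower in the same library. All 12 myelin genes had a ratio below 0, from MOG at -1.90 to FA2H at -0.30. By the interval 11 were lower and by at least 2-fold 9, beside 28.1% and 5.47% of all tested genes. The summed myelin level was 4230 CPM for the control and 2068 CPM for the exposed animal. The 9 astrocyte markers had a median of -0.37, from AQP4 at -1.38 to SOX9 at 0.99, with a summed level of 6255 and 4385 CPM. Myelin was thus the list with the lowest median (-1.17), below layer 5, and its part in the layer 5 result was not tested. Interneuron markers had a median of -0.12 over 8 genes, from SST at -0.35 to PVALB at 2.42, with summed levels of 510 and 454 CPM, and microglia markers a median of 0.25 over 6 genes, from P2RY12 at -0.52 to C1QB at 1.35, with 221 and 238 CPM in sum.

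Neighbouring tissue was checked in the same way. The 7 tested striatal markers had a median of -0.27, from PDE10A at -1.53 to GPR6 at 1.78, and summed levels of 184 and 170 CPM. BCL11B and FOXP1 are also genes of striatal neurons, and the part of striatal tissue in their levels was not tested. Meningeal genes had a median of 0.33 and 203 and 344 CPM in sum. The collagen genes COL1A1 (1.14) and COL1A2 (0.60) were higher by the interval, while DCN (0.06) and LUM (-0.11) were not distinguishable. Endothelial genes stood at 0.06, from FLT1 at -0.37 to CLDN5 at 0.20. Choroid plexus genes had 11.6 and 8.36 CPM in sum, with TTR at 2 and 31 reads and CLIC6 at 126 and 20. The meningeal sum was higher, through the collagen genes, in the library with the lower deep-layer and myelin sums, and its part in these results was not tested. With a single animal in each group, the depth of the cut, the animal and the exposure cannot be told apart.

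**Figure D4:**
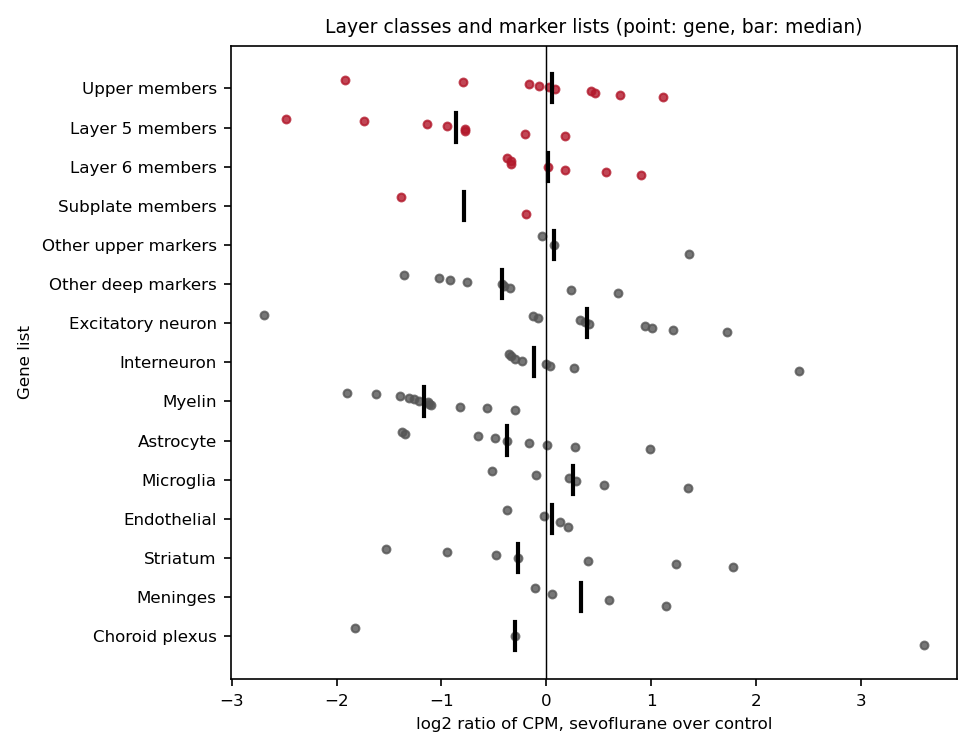
Log2 ratio of CPM, sevoflurane over control, of the tested genes in 4 layer classes (red) and in the marker lists outside them (grey), with a bar at each median. The medians of layer 5 (-0.86), the subplate (-0.79) and myelin (-1.17) lie to the left, and those of the upper layers (0.05) and of layer 6 (0.01) near 0. Relative to excitatory neuron markers these last medians become -0.34 and -0.38.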

How the data were processed

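RNA of the prefrontal cortex of 1 control and 1 sevoflurane-exposed macaque was compared, with groups taken from the sample titles. The table that the authors deposited holds raw read counts, whole numbers for each gene and library with no scaling applied. The submitters' processing notes name HISAT2 2.0.4, and the counting tool, genome build and annotation are not given in the sources used here.

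Of 33618 genes, the 18050 that reached 1 CPM in at least 1 library were tested. TMM factors (edgeR 4.0.16, R 4.3.3) were 0.991 (control) and 1.01 (sevoflurane), the depth ratio was 1.72, and log2 ratios used a prior count of 2. Intervals were exact (Clopper-Pearson), taken on the fraction of a gene's reads that came from the sevoflurane library, and pairs of genes were compared by the exact conditional odds ratio (scipy 1.17.1, Python 3.11.15, numpy 2.4.6, pandas 2.3.3, plots with matplotlib 3.10.9). The sources name no molecular identifiers, so intervals and the floor of 3 reads cover counting error only. A gene counted as lower or higher at a 2-fold difference with an interval excluding equal expression. Without replicates, no quasi-likelihood test was run.

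The 43 names, their classes, the 12 marker lists and the alternatives were chosen with earlier results of these data known. Every listed member is described, and of the marker lists the genes at either end, or all genes of a list of 10 or fewer where they bear on a layer. Gene order and span came from RefSeq genes on MMU8v2.0, a telomere-to-telomere macaque assembly. The procedure was tested on simulated data. Some genes of the excitatory neuron list enter its median and counts but are not reported here one by one. No sequences were used here.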

Additional observations from a re-analysis of the deposited data

How the results depend on the processing

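The difference between upper and deep classes cannot change with a scaling, which shifts all genes alike. Under the alternatives that can move it (prior count, filters, sampling down, class assignment, means, CUTL1 added) it kept its sign and ranged from 0.39 to 0.51. DESeq2 1.42.0 size factors, library totals, upper-quartile factors, a prior count of 0.5, a filter of 1 read and the control library sampled down left all 39 tested genes within their counting intervals, and a filter of 5 CPM did so for the 37 that passed it. The scalings shifted all genes by 0.0053, 0.0265 and 0.0101 on the log2 scale. The layer 6 median, 0.01, changed sign within its members' counting error, to -0.13 with the control sampled down and -0.08 with the 5 CPM filter, and moved furthest, to -0.38, with the excitatory reference described below. By construction, the fold threshold moved the counts, to 12 lower, 7 higher and 7 deep genes lower at 1.5-fold, and to 2, 0 and 1 at 4-fold. A stricter interval left 7 lower and 2 higher. With excitatory neuron markers as reference, chosen after seeing the data, 12 genes were lower, 1 higher and 7 deep genes lower, and medians were -0.46 over all layer genes, -0.34 for upper, -1.25 for layer 5, -1.18 for subplate, -0.73 for deep, -0.10 for several-layer and -0.13 for areal genes. Of the 39 genes, 29 moved outside their counting intervals with this reference, and CUX2 (0.73) no longer reached 2-fold. LDB2 (-0.21), SYT6 (-0.21), MEF2C (-0.34) and FOXP1 (-0.10) then changed sign, and so did POU3F3 (-0.31), LHX2 (-0.37) and FOXP2 (-0.38), which were not distinguishable from equal expression. The deep share of reads was 51.4% (control) and 37.3% (sevoflurane) with strict markers, and 56.5% and 39.1% without the most abundant genes. No paired analysis was possible because only 1 library stands in each group, and no replicate could be left out. Depth limits genes with few reads, such as LMO4, THEMIS and FOXP2.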

Other observations

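CUX1 appears in the table as CUTL1, its synonym in RefSeq, and was matched after the values were seen. It had 615 control and 1185 sevoflurane reads, a log2 ratio of 1.70 (interval 1.56 to 1.85), higher than CUX2 by 0.59 (0.43 to 0.75). Counted as an upper-layer gene, it brings the difference between upper and deep classes to 0.42.

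By kind of protein, a split made after the values were seen, the 20 listed transcription factors had a median of 0.07, with 1 at least 2-fold lower (FEZF2) and 2 higher. ZFPM2, a cofactor, was counted with the transcription factors, while the cofactors LDB2, LMO3 and LMO4 were counted with the other genes. The 19 other tested genes, among them receptors, neuropeptides, adhesion proteins and cofactors, had a median of -0.34, with 6 at least 2-fold lower and 0 higher. Of all tested genes, 5.47% were at least 2-fold lower and 7.56% higher. The transcription factors, at 5% and 10%, were near these shares, and the others were at 31.6% and 0%. Within the deep class the medians were -0.34 for 9 transcription factors and -0.36 for 8 other genes, and within the upper class 0.40 for 4 and -0.12 for 6. The 9 include ZFPM2, which had the highest ratio of the deep genes (0.90), so the deep medians depend on where it is placed.

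The nearest tested protein-coding genes on either side of the 7 genes that were at least 2-fold lower, were looked up by gene order in MMU8v2.0. Of 14 neighbours, 3 were at least 2-fold lower and 0 higher, beside 5.47% and 7.56% of all tested genes, and their median was -0.22. The 3 were DNAH3 (-3.52) and ABCA15 (-1.02), the neighbours of CRYM, and MGST1 (-1.62), a neighbour of LMO3. RXFP1 lies between TMEM144 (0.76) and C5H4orf46 (-0.12), and FEZF2 between PTPRG (0.08) and CADPS (-0.40). Among the 64 neighbours of the other tested genes, 1 was at least 2-fold lower and 3 higher, with a median of -0.04. Across the 39 tested layer genes, Spearman's correlation of the log2 ratio with gene span was 0.16, and across the 15077 tested genes with a span it was -0.01. These are correlations across genes of the same 2 libraries, and genes are not independent replicates.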
